A study of Mus musculus with 10 samples.

Results

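Ephrins, Eph receptors, semaphorins, plexins and neuropilins are families of contact and guidance genes, and their mRNA levels are described here in differentiating myoblasts. Members were taken by name, as every protein-coding gene of the deposited table whose symbol is that of a family member, which found 53 of 35275 genes: 14 Eph receptors, 8 ephrins, 20 semaphorins, 9 plexins and 2 neuropilins. C2C12 is an established mouse myoblast line whose cells multiply in serum-rich medium and, in serum-poor medium, leave the cell cycle and fuse into myotubes with many nuclei. The data are 5 RNA-seq libraries of cells on day 6 after the growth medium (DMEM with fetal bovine serum) was changed for differentiation medium (DMEM with horse serum), and 5 libraries of cells before differentiation, still in growth medium. Both conditions carried antibiotics and the labels name no engineered allele or drug. The labels call the day 6 libraries differentiating and the day comes from the study's text. All libraries come from 1 cell line, and nothing in the labels says that they were separate cultures, so the p-values measure only the spread between these libraries.

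Eph receptors are receptor tyrosine kinases whose ligands, the ephrins, are themselves fixed to the surface of the neighbouring cell, ephrin-A ligands by a lipid anchor and ephrin-B ligands by a transmembrane stretch. Signals run into both cells, and the pair is known for repulsion, boundary formation and the placing of motor axons on muscle. Semaphorins are secreted (class 3), membrane-spanning (classes 4, 5 and 6) or lipid-anchored (class 7) ligands of plexins, large receptors that act on small GTPases and the cytoskeleton, and most class 3 semaphorins need a neuropilin as co-receptor. In muscle these families are known from innervation, from the migration of precursor cells and from vessel growth.

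Total counts per library ranged from 15367909 to 20509280 on day 6 and 16288532 to 21622527 before differentiation. Markers of myotubes and of dividing cells followed the labels. The summed level of 7 myotube genes was 9362 to 13958 CPM (counts for each 1000000 of the scaled library total) on day 6 and 22.3 to 24.8 CPM before differentiation. The 6 genes of dividing cells summed to 117 to 171 CPM on day 6 and 2092 to 2241 CPM before differentiation. The 6 myoblast genes summed to more on day 6, at 4690.4 to 5589 CPM, against 1876 to 2041 CPM before differentiation, and did not move together. Des, Itga7, Myod1 and Vcam1 were higher on day 6 (229628 counts against 72870 before differentiation for Des). Myf5 was lower (1346 counts on day 6 against 2828 before differentiation), and Cdh15 overlapped. Of the lists for other cell types that use these families, all but the neuron list summed to under 5 CPM in every library. Of 6 endothelial markers, 4 had a count, with a sum of 0.480 to 1.22 CPM on day 6 and 0.0592 to 0.331 CPM before differentiation, and Tie1 and Erg were at 0. The 5 Schwann and glia markers summed to 1.28 to 2.30 CPM on day 6 and 0.945 to 1.97 CPM before differentiation, with Sox10 at 0. Of 6 blood and immune markers, 4 had a count (1.74 to 2.78 CPM on day 6, 0.829 to 3.07 CPM before differentiation, Emr1 and Cd3e at 0), as had 4 of 5 adipocyte markers (0 to 0.0495 CPM on day 6, 0 to 0.242 CPM before differentiation, Lep at 0). Of the 5 neuron markers, Rbfox3 and Snap25 were at 0, and the sum of 34.4 to 47.4 CPM on day 6 and 299 to 346 CPM before differentiation held Tubb3, without which it came to 23.8 to 30.2 CPM on day 6 and 25.5 to 28.1 CPM before differentiation. In bulk RNA a change in the share of cells that express a gene and a change in RNA per cell cannot be told apart. Day 6 replicates 1 and 2 lay both above or both below replicates 3, 4 and 5 in 16 of the 44 tested members (36.4%), against 44.9% of all genes tested. They lay above in Epha4, Ephb2, Ephb3, Plxna2, Plxnb3 and Sema6c, and below in Efna1, Epha1, Epha2, Ephb6, Plxna3, Sema3a, Sema3b, Sema4f, Sema5a and Sema6b.

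The comparison asks which of these genes differ between cultures on day 6 of differentiation and cultures before it. Of the 53 members, 44 had enough counts to be tested, and 33 of these changed with differentiation: 16 were higher and 17 were lower on day 6 (edgeR's quasi-likelihood test, Benjamini-Hochberg adjusted p under 0.05 over 13085 genes). Over all genes tested, 79.8% were called, 40.1% higher and 39.7% lower, so the families as a whole changed about as often as other genes did. Changes of more than 1 log2 (2-fold) were found for 11 members upward and 11 downward, against 18.1% upward and 14.7% downward of all genes tested. Plxnb3 and Sema3g, both higher and both among these 11 upward, passed the filter on low counts only through day 6. Of the other 42 members 14 were higher and 17 lower. The median log2 fold change was -0.04 over the tested members and 0.01 over all genes tested. In 15 members every day 6 library lay above every library before differentiation, and in 14 every one lay below (69.1% of all genes tested did not overlap, 34.3% above and 34.8% below). Plxnb3 is among the 15.

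All 7 ephrins that passed the test were lower on day 6, with 1 of the 8 not called. The shares to set beside this and the other family counts are 40.1% higher and 39.7% lower of all genes tested. No ephrin was higher at an unadjusted p under 0.05 in edgeR or DESeq2 (0 in each). That adds little, since an ephrin called lower cannot also be higher and only Efna2 was left free. Of 7 Eph receptors tested, 3 were higher, 2 lower and 2 not called. Of 19 semaphorins, 10 were higher, 6 lower and 3 not called, and 6 of the 7 class 3 semaphorins were higher. Both counts of higher genes include Sema3g, which passed the filter on low counts only through day 6. Of 8 plexins, 2 were higher (Plxnb3, which also passed the filter only through day 6, among them), 2 lower and 4 not called. Of the 2 neuropilins 1 was higher and 1 not called. The median log2 fold change was -1.10 over the ephrins, 0.34 over the Eph receptors, 0.72 over the semaphorins and -0.02 over the plexins, with Sema3g and Plxnb3 included.

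**Figure D1:**
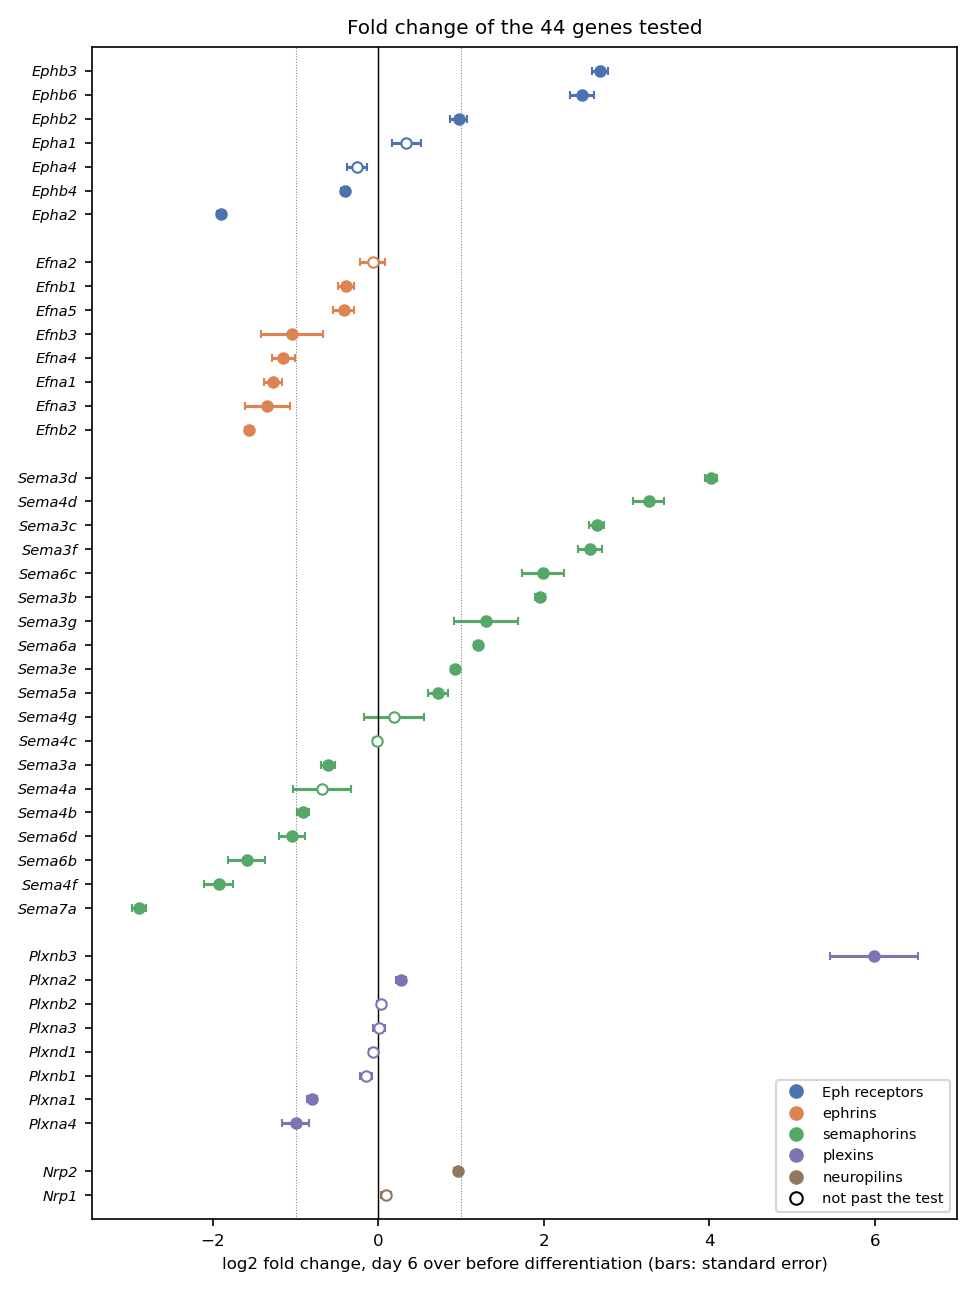
Log2 fold change of each of the 44 tested genes, day 6 over before differentiation, grouped by family, with bars for the standard error and dotted lines at a change of 1 log2. Open symbols missed the test. The ephrins lie below 0, between -1.56 and -0.07. Of the plexins, Plxnb3 lies at 5.99, Plxna4 at -1.0 and Plxna1 at -0.80, and the others lie between -0.15 and 0.27.

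Promoter sequence is shown for 4 genes, all chosen after their values were seen. They are Ephb3, Sema3d and Plxnb3, the most increased Eph receptor, semaphorin and plexin of those tested, and Sema7a, the most decreased member. Sema4d, with a log2 fold change of 3.27, changed more than Ephb3 and Sema7a and is not shown. Only stretches that hold an E-box were printed, so its presence in all 4 is no result. Each stretch is 200 bases, from base 250 to base 51 before the start that RefSeq annotates, on the plus strand of GRCm38.p6 (the assembly called mm10), and lies upstream of the annotated transcript. Capitals mark an E-box, the letters CAGCTG or CAGGTG read on either strand, which MyoD and myogenin are known to bind. The stretch of Ephb3 (chr16:21204545-21204744) has CAGCTG starting 137 bases before the start, that of Sema3d (chr5:12382916-12383115) has CAGGTG on the minus strand, printed as CACCTG, 210 bases before, that of Plxnb3 (chrX:73756853-73757052) has CAGCTG 152 bases before, and that of Sema7a (chr9:57939862-57940061) has CAGCTG 193 bases before.
Ephb3: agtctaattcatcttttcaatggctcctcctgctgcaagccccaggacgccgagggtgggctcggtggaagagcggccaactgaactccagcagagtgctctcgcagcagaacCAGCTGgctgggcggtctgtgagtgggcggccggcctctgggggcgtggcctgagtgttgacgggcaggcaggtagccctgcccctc
Sema3d: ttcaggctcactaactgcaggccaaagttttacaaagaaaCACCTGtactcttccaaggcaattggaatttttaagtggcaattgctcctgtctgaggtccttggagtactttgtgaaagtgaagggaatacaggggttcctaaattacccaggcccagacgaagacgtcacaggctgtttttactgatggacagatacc
Plxnb3: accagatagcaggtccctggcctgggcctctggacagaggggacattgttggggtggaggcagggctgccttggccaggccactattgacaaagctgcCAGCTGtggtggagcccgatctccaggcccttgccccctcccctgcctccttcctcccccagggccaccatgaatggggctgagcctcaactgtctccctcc
Sema7a: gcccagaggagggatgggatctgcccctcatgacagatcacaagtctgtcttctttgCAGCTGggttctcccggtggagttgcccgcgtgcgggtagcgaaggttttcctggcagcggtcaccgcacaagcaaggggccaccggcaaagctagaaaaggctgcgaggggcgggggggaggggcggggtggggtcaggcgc

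In the RefSeq table, windows of 300 bases (250 before to 50 after a start) were found for 47 of the 53 members, with 61 starts in all. An E-box was in 17 of the 61 (27.9%), against 10823 of 32851 promoters of the table (32.9%). The 16 windows of 13 higher genes held one in 7 (43.8%), and the 19 windows of 14 lower genes in 4 (21.1%). For CAGCTG alone these were 5 windows (31.2%) of higher genes and 1 (5.26%) of lower genes, which is the Sema7a window shown, against 16.3% of all promoters. Plxnb3 and Sema3g, whose direction was fixed by passing the filter on low counts only through day 6, are among the higher genes. Each has a window with CAGCTG, counted among these 7 and these 5, so nothing is read from the difference. The matches are a description of letters, the numbers are small, and both the most increased semaphorin and the most decreased one carry an E-box. The window of Plxnb3 holds 2 CAGCTG, of which the printed stretch shows 1. Efnb3, Plxna1, Plxna4, Sema3b, Sema3f and Sema6a had no matching entry.

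Among the Eph receptors, Ephb6 and Ephb3 were the most abundant on day 6 and Epha2 before differentiation. Epha2, the EphA receptor best known from epithelial cells and migrating cells, had 55.4, 56.6, 56.7, 58.1 and 59.8 CPM on day 6, against 195, 212, 218, 223 and 219.6 CPM before differentiation. Every day 6 library lay well below every library before differentiation (log2 fold change -1.90, SE 0.0502, edgeR adjusted p = 3.03e-16). Ephb3, a kinase of the EphB class, had 107, 123, 101, 94.1 and 88.2 CPM on day 6, against 13.5, 16.8, 18.1, 15.6 and 15.9 CPM before differentiation. It was higher in all 5 day 6 libraries (log2 fold change 2.68, SE 0.0950, edgeR adjusted p = 1.42e-13), with replicates 1 and 2 above the other day 6 libraries. Ephb6, an EphB receptor whose kinase is inactive, had 99.2, 110.3, 153, 161 and 160.1 CPM on day 6, against 22.9, 25.2, 25.6, 26.1 and 24.4 CPM before differentiation. It too was higher with no overlap (log2 fold change 2.46, SE 0.147, edgeR adjusted p = 3.17e-08), but here day 6 replicates 1 and 2 were the lowest of the 5.

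Ephb2, a kinase of the same class, was higher at 23.4 ± 3.42 CPM on day 6, against 11.98 ± 0.952 CPM before differentiation (SD, n = 5 each; log2 fold change 0.97, edgeR adjusted p = 8.86e-08). Ephb4, the receptor of ephrin-B2 that is known from vessels, was lower by a smaller step, at 49.6 ± 2.59 CPM on day 6, against 65.4 ± 0.576 CPM before differentiation (log2 fold change -0.40, edgeR adjusted p = 1.31e-06). Of the 4 EphB receptors tested, 3 were higher and 1 lower, without overlap of the conditions in any of them. Of all genes tested, 40.1% were higher, 39.7% were lower and 69.1% did not overlap. Of the 3 EphA receptors tested only Epha2 passed the test.

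Epha4, which binds ephrins of both classes, had 23.3, 23.3, 17.2, 14.0 and 20.9 CPM on day 6, against 22.7, 26.1, 22.4, 24.7 and 22.6 CPM before differentiation, and the conditions overlapped (log2 fold change -0.26, SE 0.118, edgeR adjusted p = 0.0539). Its call varied with the settings. With library totals alone it passed the threshold (log2 fold change -0.28, edgeR adjusted p = 0.0385). With replicates 1 and 2 of day 6 left out the log2 fold change was -0.43 (edgeR adjusted p = 3.06e-04), and with replicates 3, 4 and 5 left out it was 0.02. Epha1 had 6.18, 5.87, 10.6, 10.3 and 10.7 CPM on day 6, against 7.62, 6.14, 5.91, 7.02 and 7.76 CPM before differentiation, with day 6 replicates 1 and 2 below all other day 6 libraries (log2 fold change 0.34, SE 0.176, edgeR adjusted p = 0.0901). Without those 2 libraries its log2 fold change was 0.63 (edgeR adjusted p = 6.35e-05), and with day 6 replicates 3, 4 and 5 left out it was -0.15. Leaving out either of replicates 1 and 2 alone also took both genes past the threshold (edgeR adjusted p of 0.0206 and 0.0113 for Epha1, and of 0.0195 and 0.0281 for Epha4). Epha1 shares 236 exon bases (6.01%) with Zyx on the opposite strand, a gene with 37220 counts on day 6 and 49982 before differentiation, and the strand setting of the counting is not stated. The part of Zyx reads in the counts of Epha1 (743 on day 6, 625 before differentiation) was not tested.

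On the FPKM scale (counts per kilobase of gene and per 1000000 counts of the library), which allows genes to be set side by side, the Eph receptors summed to about the same level in both conditions, 91.5 ± 7.05 FPKM on day 6 and 87.1 ± 3.27 FPKM before differentiation (SD, n = 5 each). The makeup of that sum differed: EphA receptors came to 20.4 ± 1.08 FPKM on day 6 and 60.9 ± 2.80 FPKM before differentiation, and EphB receptors to 71.1 ± 6.33 FPKM on day 6 and 26.3 ± 0.537 FPKM before differentiation. By share of the summed FPKM, Ephb6 held 39.1% ± 6.18 on day 6 and 7.62% ± 0.161 before differentiation, and Ephb3 held 23.7% ± 4.31 on day 6 and 3.88% ± 0.323 before differentiation. Epha2 held 15.9% ± 0.861 on day 6 and 62.9% ± 0.876 before differentiation, and Ephb4 held 12.4% ± 0.748 on day 6 and 17.4% ± 0.697 before differentiation. The order on day 6 was Ephb6, Ephb3, Epha2, Ephb4, and the day 6 shares of Ephb6 (32.3% to 44.4%) and Ephb3 (19.2% to 28.8%) did not overlap.

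**Figure D2:**
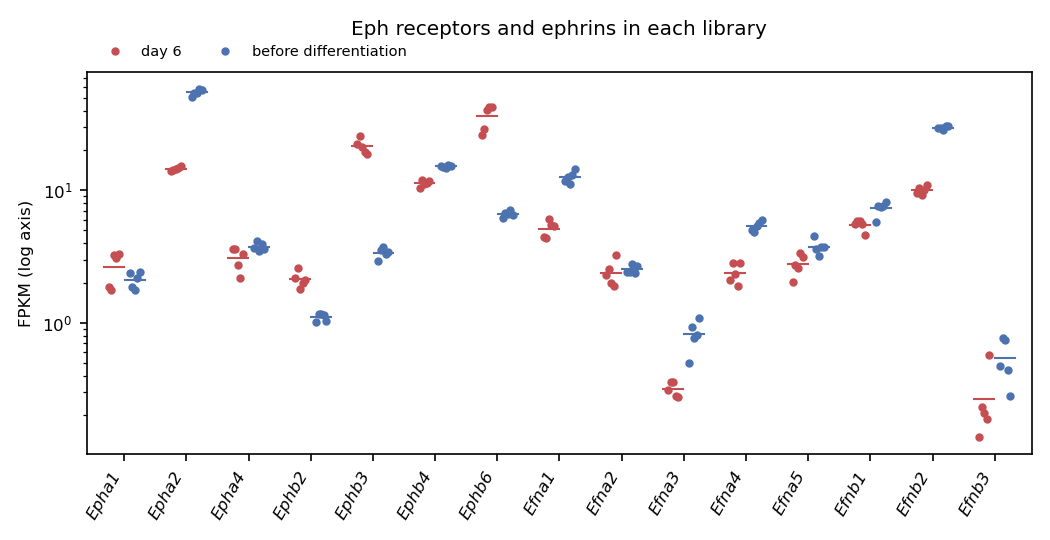
FPKM of the 7 Eph receptors and 8 ephrins tested, on a log axis, with 1 point for each of the 5 day 6 libraries and the 5 libraries before differentiation and a line at each mean. Epha2 averages 14.5 FPKM on day 6 and 54.9 FPKM before differentiation, and Ephb6 averages 36.1 FPKM on day 6 and 6.64 FPKM before differentiation.

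The other 7 Eph receptors had too few counts for the test. Summed over 5 libraries, Epha7 had 67 counts on day 6 and 4 before differentiation, a ratio of 17.5 per scaled count (95% counting interval 6.54 to 66.3, counting error only), and its conditions did not overlap. When no filter was applied, its edgeR adjusted p was 1.88e-06. Ephb1 had 17 counts on day 6 and 3 before differentiation, a ratio of 5.94 (1.72 to 31.6), and missed the test without the filter (edgeR adjusted p = 0.063). Epha3 had 9 counts on day 6 and 37 before differentiation, a ratio of 0.255 (0.108 to 0.538), with an edgeR adjusted p of 0.0348 without the filter. Epha10 had 1 count on day 6 and 4 before differentiation, and Epha8 had 0 on day 6 and 3 before differentiation, while Epha5 and Epha6 had no count in any library. Counts of this size say little about levels, and a count of 0 over 5 libraries allows up to 3 counts.

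Of the 8 ephrins, the ligands of these receptors, 7 were lower, against 39.7% of all genes tested. Ephrin-B2 (Efnb2), the ligand of Ephb4 and the most abundant ephrin, had 41.5, 45.5, 39.8, 43.6 and 46.8 CPM on day 6, against 126, 127, 127, 129.7 and 129.6 CPM before differentiation. The conditions were far apart (log2 fold change -1.56, SE 0.0522, edgeR adjusted p = 7.46e-15). The other ephrin-B ligands, both transmembrane, were lower by less or with less certainty. Efnb1 was at 18.1 ± 1.78 CPM on day 6, against 23.8 ± 3.09 CPM before differentiation (log2 fold change -0.39, edgeR adjusted p = 0.00154), with 1 library in each condition apart from its group and overlap between the conditions. Efnb3 had 0.445, 0.747, 0.670, 0.610 and 1.81 CPM on day 6, against 1.48, 2.42, 2.41, 1.39 and 0.888 CPM before differentiation. Its day 6 replicate 5 was the highest library of that group (log2 fold change -1.04, SE 0.374, edgeR adjusted p = 0.0168), and the call was lost when replicate 2 or replicate 3 before differentiation was left out (edgeR adjusted p = 0.0527 and 0.0545) or both day 6 replicates 1 and 2 (0.0795).

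Of the 5 lipid-anchored ephrin-A ligands, 4 were lower, beside the same 39.7% of all genes tested. Efna1 had 7.37, 7.26, 9.94, 8.97 and 8.71 CPM on day 6, against 18.7, 20.4, 18.7, 20.9 and 23.2 CPM before differentiation. No library overlapped (log2 fold change -1.27, SE 0.105, edgeR adjusted p = 2.96e-09), and the day 6 replicates 1 and 2 were the lowest of all. Efna3, present at a low level, had 0.742, 0.854, 0.853, 0.671 and 0.646 CPM on day 6, against 1.15, 2.21, 1.84, 1.87 and 2.55 CPM before differentiation. It was lower without overlap (log2 fold change -1.34, SE 0.271, edgeR adjusted p = 2.04e-04). Efna4 had 3.41, 4.59, 3.72, 3.05 and 4.52 CPM on day 6, against 7.89, 7.70, 8.83, 8.95 and 9.42 CPM before differentiation. It was likewise lower in all 5 day 6 libraries (log2 fold change -1.15, SE 0.139, edgeR adjusted p = 5.43e-07).

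Efna1, Efna3 and Efna4 are neighbours on mouse chromosome 3, with gaps of 32.8 kb and 10.4 kb and no other protein-coding gene between them, and all 3 fell by more than 1 log2. Efna5, a ligand known from the mapping of axons, was at 11.3 ± 2.05 CPM on day 6, against 15.0 ± 1.73 CPM before differentiation and its conditions overlapped (log2 fold change -0.42, edgeR adjusted p = 0.0051). Efna2, also a lipid-anchored ligand, had 4.95, 5.55, 4.27, 4.09 and 6.84 CPM on day 6, against 5.04, 5.12, 6.09, 5.02 and 5.69 CPM before differentiation. These values overlapped and the test was missed (log2 fold change -0.07, SE 0.154, edgeR adjusted p = 0.673). Exons of Efna3 (14.1%) and Efna4 (10.5%) overlap noncoding genes on the opposite strand, which had at most 14 counts over 5 libraries.

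Summed over the family, ephrin mRNA was at 28.8 ± 1.64 FPKM on day 6 and 62.7 ± 2.80 FPKM before differentiation (SD, n = 5 each), 0.459 times the level before differentiation. The ephrin-A ligands summed to 13.0 ± 1.31 FPKM on day 6 and 25.1 ± 1.77 FPKM before differentiation, and the ephrin-B ligands to 15.7 ± 0.515 FPKM on day 6 and 37.6 ± 1.21 FPKM before differentiation. Efnb2 held 34.7% ± 1.50 of the family sum on day 6 and 47.5% ± 1.37 before differentiation, and stayed the most abundant ephrin in both. Set beside the receptors, the EphB sum was 2.70 times and the ephrin-B sum 0.419 times that before differentiation, while the EphA sum was 0.336 times and the ephrin-A sum 0.520 times. No test was made of these sums.

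**Figure D3:**
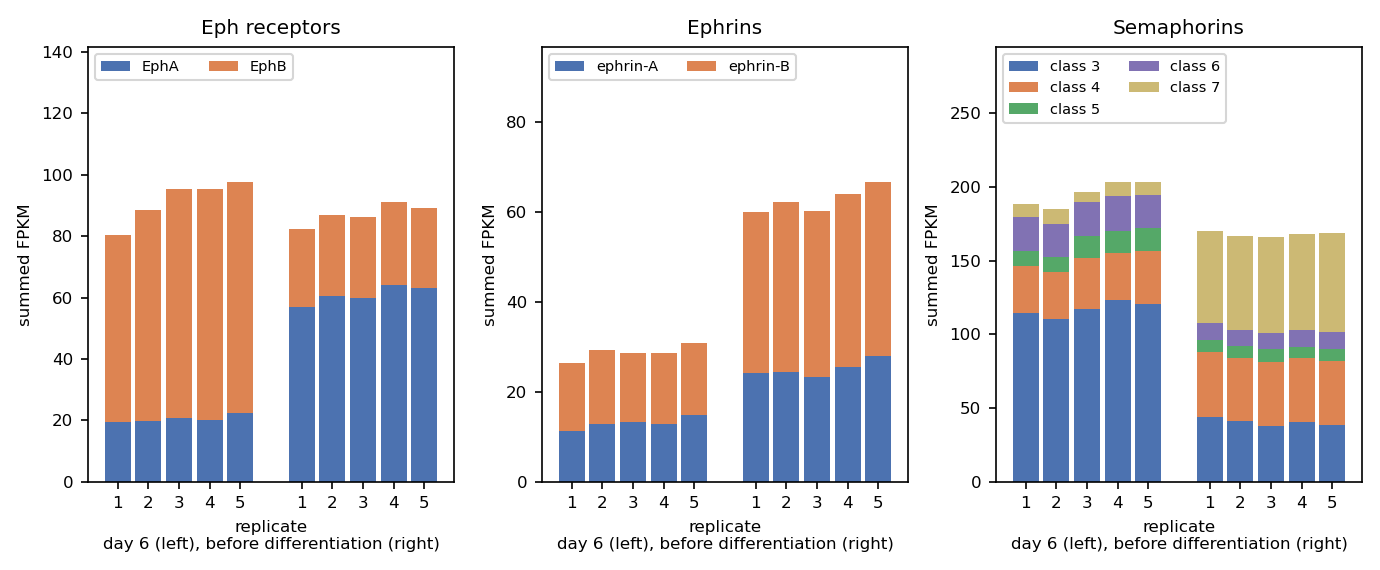
Summed FPKM of Eph receptors, ephrins and semaphorins in each library, stacked by class, with the 5 day 6 libraries left of the 5 libraries before differentiation. The Eph receptor bars are of similar height (91.5 FPKM on day 6 and 87.1 FPKM before differentiation on average) with more EphB on day 6, the ephrin bars are lower on day 6, and class 3 takes most of the semaphorin bars on day 6 (117 of 195 FPKM).

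Among the semaphorins, 6 of the 7 secreted class 3 ligands were higher, against 40.1% of all genes tested, and the lipid-anchored Sema7a was lower. One of these class 3 ligands, Sema3g, passed the filter on low counts only through day 6. Sema7a, which binds plexin C1 and integrins, had 28.5, 32.7, 20.9, 30.5 and 29.5 CPM on day 6, against 201, 211, 219, 210.4 and 217 CPM before differentiation. It was the most abundant semaphorin by FPKM before differentiation and the most decreased member of the families (log2 fold change -2.89, SE 0.0894, edgeR adjusted p = 7.01e-14). Its plexin, Plxnc1, had 18 counts on day 6 and 29 before differentiation over 5 libraries, a ratio of 0.650 (95% counting interval 0.340 to 1.21), too few for the test.

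Sema3d, a secreted ligand, rose the most of the semaphorins. Its level was 194, 175, 158, 180.1 and 192 CPM on day 6, against 11.2, 12.8, 10.2, 10.2 and 11.0 CPM before differentiation. The lowest day 6 library was far above the highest library before differentiation (log2 fold change 4.02, SE 0.0759, edgeR adjusted p = 3.59e-18). Sema3b had 138, 139, 162, 164 and 149 CPM on day 6, against 37.7, 36.0, 38.9, 41.4 and 39.8 CPM before differentiation. It was the most abundant semaphorin by FPKM on day 6 (log2 fold change 1.95, SE 0.0618, edgeR adjusted p = 3.32e-15), with day 6 replicates 1 and 2 the lowest of the 5. Sema3c, known from the outflow tract of the heart, had 101, 92.6, 98.0, 99.2 and 90.8 CPM on day 6, against 20.2, 15.4, 14.2, 14.6 and 12.9 CPM before differentiation. The conditions did not overlap (log2 fold change 2.64, SE 0.0923, edgeR adjusted p = 5.41e-14).

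Sema3f, the ligand that prefers neuropilin 2, had 8.26, 10.0, 8.53, 11.2 and 9.23 CPM on day 6, against 1.48, 1.83, 1.46, 1.63 and 1.60 CPM before differentiation. It was higher without overlap (log2 fold change 2.56, SE 0.148, edgeR adjusted p = 1.93e-11). Sema3g, a rare transcript here, had 1.14, 1.12, 2.19, 0.794 and 1.16 CPM on day 6, against 0.164, 0.862, 0.472, 0.423 and 0.652 CPM before differentiation. It passed the filter on low counts only through day 6, which fixed its direction, so its fitted values are given as a description (log2 fold change 1.30, SE 0.386, edgeR adjusted p = 0.00506). Its conditions overlapped, and its day 6 replicate 3 was well above the rest. Sema3e, which can bind plexin D1 without a neuropilin, was at 109 ± 3.10 CPM on day 6, against 57.2 ± 2.50 CPM before differentiation (log2 fold change 0.93, edgeR adjusted p = 4.05e-12), and Sema3a, the ligand of neuropilin 1 that repels motor axons, was the only class 3 gene that fell, at 59.5 ± 5.57 CPM on day 6, against 90.8 ± 10.8 CPM before differentiation (log2 fold change -0.61, edgeR adjusted p = 3.23e-06).

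On the FPKM scale the class 3 sum was 117 ± 4.97 FPKM on day 6 and 40.3 ± 2.31 FPKM before differentiation (SD, n = 5 each), 2.90 times as high on day 6. Sema3b held 22.3% ± 1.27 of all semaphorin FPKM on day 6 and 6.77% ± 0.377 before differentiation, and Sema3d held 14.1% ± 1.22 on day 6 and 1.02% ± 0.102 before differentiation. Sema7a held 4.40% ± 0.738 on day 6 and 38.5% ± 1.17 before differentiation. Sema3d, Sema3a, Sema3e and Sema3c lie in that order on chromosome 5, with gaps of 0.808 Mb, 0.423 Mb and 3.32 Mb that hold 1, 1 and 14 other protein-coding genes. Sema3a, between Sema3d and Sema3e, was lower while the others were higher. Sema3b and Sema3f lie 72.3 kb apart on chromosome 9, with 3 protein-coding genes between them, and both were higher.

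**Figure D4:**
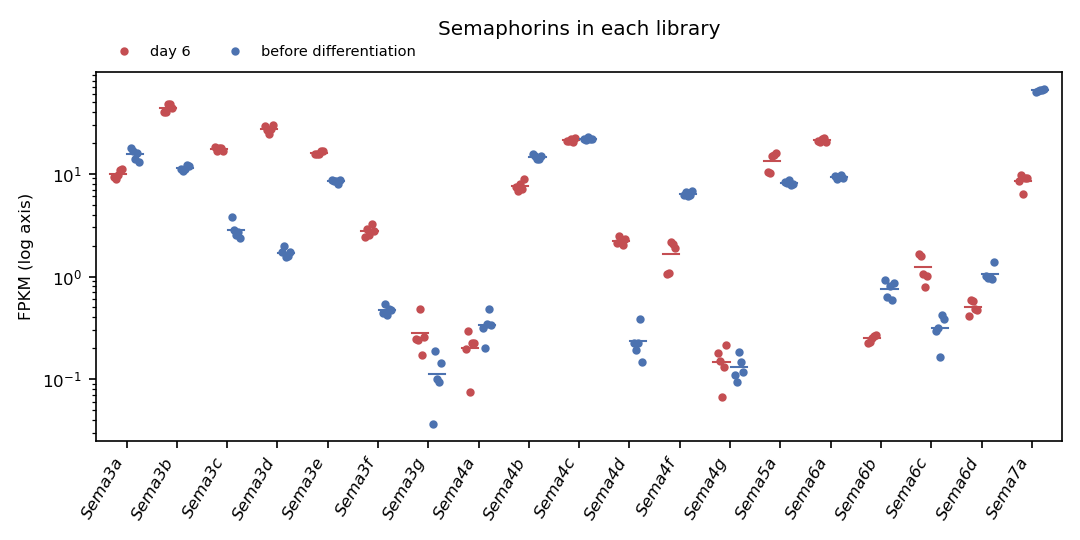
FPKM of the 19 semaphorins tested, on a log axis, with 1 point for each of the 5 day 6 libraries and the 5 libraries before differentiation and a line at each mean. Sema3d averages 27.4 FPKM on day 6 and 1.71 FPKM before differentiation, and Sema7a averages 8.55 FPKM on day 6 and 64.5 FPKM before differentiation.

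The transmembrane class 4 gave no common direction, with 1 gene higher, 2 lower and 3 not called. Sema4d, the ligand of plexin B1 that is known from immune and bone cells, had 9.64, 11.3, 9.87, 9.22 and 10.4 CPM on day 6, against 0.987, 0.862, 1.04, 1.69 and 0.652 CPM before differentiation. It was higher in every day 6 library (log2 fold change 3.27, SE 0.187, edgeR adjusted p = 1.65e-11). The blood and immune markers summed to 1.74 to 2.78 CPM on day 6 and 0.829 to 3.07 CPM before differentiation. Within that list Itgam had 66 counts on day 6 and 0 before differentiation, while Cd68 had 104 on day 6 and 173 before differentiation. The part of such cells in the Sema4d values was not tested. Sema4f had 4.40, 4.48, 8.96, 8.61 and 7.75 CPM on day 6, against 24.7, 26.8, 25.5, 25.0 and 27.4 CPM before differentiation. It was lower without overlap (log2 fold change -1.93, SE 0.174, edgeR adjusted p = 1.37e-07), and day 6 replicates 1 and 2 were the lowest.

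Sema4b was lower, at 29.4 ± 2.92 CPM on day 6, against 55.3 ± 2.39 CPM before differentiation (log2 fold change -0.91, edgeR adjusted p = 8.75e-10). Sema4c, a ligand of plexin B2 and the most abundant of the class, had 80.4, 81.1, 83.4, 78.6 and 83.7 CPM on day 6, against 80.9, 80.1, 88.4, 81.8 and 81.4 CPM before differentiation. The conditions overlapped and the difference was small against its error (log2 fold change -0.02, SE 0.0474, edgeR adjusted p = 0.709). Sema4a, a ligand known from immune cells, had 0.658 ± 0.261 CPM on day 6, against 1.07 ± 0.311 CPM before differentiation (log2 fold change -0.68, edgeR adjusted p = 0.0789), and passed the test when replicate 2 before differentiation or day 6 replicate 2 was left out (edgeR adjusted p = 0.0424 and 0.0491). Sema4g had 0.684 ± 0.252 CPM on day 6, against 0.595 ± 0.167 CPM before differentiation (log2 fold change 0.19, edgeR adjusted p = 0.626).

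Class 6, whose members signal through plexin A receptors, split evenly. Sema6a, its most abundant member, had 143, 142, 148, 153 and 139 CPM on day 6, against 63.9, 60.6, 64.2, 65.1 and 60.8 CPM before differentiation. It was higher with no overlap (log2 fold change 1.20, SE 0.0474, edgeR adjusted p = 7.23e-14). Sema6c had 8.61, 8.17, 5.42, 4.09 and 5.16 CPM on day 6, against 1.48, 1.62, 0.850, 2.12 and 1.95 CPM before differentiation. It was higher (log2 fold change 1.99, SE 0.253, edgeR adjusted p = 1.13e-06), most of all in day 6 replicates 1 and 2. A second entry of the table with the same name in capitals lies within the span of Sema6c and had no count in any library. How reads shared by these entries were counted is not stated.

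Sema6b had 0.890, 0.908, 0.975, 1.04 and 1.03 CPM on day 6, against 3.45, 2.42, 3.21, 2.24 and 3.26 CPM before differentiation. All day 6 libraries were below all others (log2 fold change -1.59, SE 0.224, edgeR adjusted p = 3.63e-06). Sema6d, a ligand of plexin A1, had 2.72, 3.84, 3.72, 3.17 and 3.03 CPM on day 6, against 6.36, 6.20, 6.52, 6.05 and 8.83 CPM before differentiation. It was lower without overlap (log2 fold change -1.04, SE 0.156, edgeR adjusted p = 7.64e-06), and replicate 5 before differentiation was the highest library. Of class 5, with thrombospondin repeats, Sema5a was higher, at 144 ± 29.1 CPM on day 6, against 87.3 ± 4.59 CPM before differentiation (log2 fold change 0.72, edgeR adjusted p = 2.54e-04), while Sema5b had 1 count on day 6 and 0 before differentiation. On the FPKM scale class 6 summed to 23.0 ± 0.599 FPKM on day 6 and 11.4 ± 0.404 FPKM before differentiation, class 5 to 13.3 ± 2.78 FPKM on day 6 and 8.12 ± 0.310 FPKM before differentiation, and class 4 to 33.1 ± 1.86 FPKM on day 6 and 43.5 ± 0.521 FPKM before differentiation.

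Of the 8 plexins tested, the receptors of these ligands, 4 missed the test, 2 were higher and 2 lower. Plxnb2, a receptor of class 4 semaphorins and the most abundant plexin, had 529.9, 583, 519.8, 531 and 505 CPM on day 6, against 509.8, 507, 539, 542 and 525 CPM before differentiation. The conditions overlapped (log2 fold change 0.03, SE 0.0476, edgeR adjusted p = 0.634), and the day 6 libraries bear on this small value: it was 0.13 (edgeR adjusted p = 0.0245) with day 6 replicates 3, 4 and 5 left out, and 0.00 with replicates 1 and 2 left out. Plxnb2 held 62.4% ± 0.165 of all plexin FPKM on day 6 and 56.1% ± 0.546 before differentiation.

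Plxnb3, a plexin known from glia and neurons that also binds Sema5a, had the largest fitted increase of the tested members. It had 4.01, 4.75, 2.26, 2.20 and 2.84 CPM on day 6, against 0.164, 0.0539, 0, 0 and 0 CPM before differentiation. It passed the filter on low counts only through day 6, which fixed its direction though not its call. Its fitted values are given as a description (log2 fold change 5.99, SE 0.527, edgeR adjusted p = 7.24e-09). The fold rests on 287 counts on day 6 against 4 before differentiation, each over 5 libraries, a ratio of 75.2 with a 95% counting interval of 29.0 to 278. Without replicate 1 before differentiation, which held most of those 4 counts, the fitted log2 fold change was 7.29, and the lowest value without any single library was 5.66. Day 6 replicates 1 and 2 had the highest values. Even on day 6 it came to 0.383% ± 0.118 of plexin FPKM, and the Schwann and glia markers summed to 1.28 to 2.30 CPM on day 6 and 0.945 to 1.97 CPM before differentiation. Within that list S100b had 55 counts on day 6, highest in replicates 1 and 2 (1.34 and 0.908 CPM), and 8 before differentiation, while Gfap had 1 count on day 6 and 26 before differentiation. The part of such cells in the Plxnb3 values was not tested.

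Of the plexin A receptors, the partners of neuropilins, Plxna4 had 3.36, 3.79, 3.66, 3.30 and 3.42 CPM on day 6, against 6.25, 6.14, 9.50, 7.92 and 5.27 CPM before differentiation. It was lower without overlap (log2 fold change -1.0, SE 0.165, edgeR adjusted p = 2.19e-05). Plxna1 was lower, at 176 ± 13.7 CPM on day 6, against 307 ± 13.5 CPM before differentiation (log2 fold change -0.80, edgeR adjusted p = 2.52e-10), and 10.7% of its exon bases overlap the antisense gene Gm26811, which had 100 counts on day 6 and 167 before differentiation while Plxna1 had 15415 counts on day 6 and 28134 before differentiation. Plxna2 was slightly higher, at 89.5 ± 5.50 CPM on day 6, against 74.4 ± 5.41 CPM before differentiation (log2 fold change 0.27, edgeR adjusted p = 5.10e-04). Plxna3 had 31.5, 34.8, 37.9, 37.2 and 35.1 CPM on day 6, against 35.0, 35.4, 34.7, 37.9 and 31.9 CPM before differentiation. The conditions overlapped and the test was missed (log2 fold change 0.01, SE 0.0683, edgeR adjusted p = 0.867).

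Plxnb1, the receptor of Sema4d, had 23.9, 21.7, 20.8, 22.6 and 20.4 CPM on day 6, against 25.1, 21.8, 26.8, 24.7 and 23.5 CPM before differentiation. The conditions overlapped (log2 fold change -0.15, SE 0.0770, edgeR adjusted p = 0.0737), and 3 alternatives took it past the threshold: library totals alone, and leaving out replicate 2 before differentiation or day 6 replicate 1 (edgeR adjusted p = 0.0438, 0.0321 and 0.043). Plxnd1, the receptor of Sema3e, had 96.5, 112, 91.2, 95.1 and 96.8 CPM on day 6, against 99.3, 97.2, 106, 102 and 109 CPM before differentiation. It did not pass the test (log2 fold change -0.06, SE 0.0575, edgeR adjusted p = 0.323), and day 6 replicate 2 stood above all other libraries. The summed plexin level was 133 ± 6.34 FPKM on day 6 and 147 ± 3.95 FPKM before differentiation (SD, n = 5 each).

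The neuropilins, co-receptors of class 3 semaphorins and of VEGF, parted. Nrp2 had 324, 316, 329, 321 and 343 CPM on day 6, against 168, 159, 175, 170.1 and 168 CPM before differentiation. It was higher in all 5 day 6 libraries (log2 fold change 0.96, SE 0.0445, edgeR adjusted p = 7.92e-13), just under 1 log2. Nrp1 had 70.6, 72.2, 65.7, 67.9 and 79.2 CPM on day 6, against 61.4, 62.1, 70.8, 70.3 and 70.4 CPM before differentiation. The conditions overlapped and the test was missed (log2 fold change 0.09, SE 0.0627, edgeR adjusted p = 0.217). Nrp2 was the more abundant in both conditions, with 48.2 ± 2.03 FPKM on day 6 and 25.1 ± 0.831 FPKM before differentiation, against 11.95 ± 0.944 FPKM on day 6 and 11.4 ± 0.779 FPKM before differentiation for Nrp1, and its share of the pair was 80.2% ± 0.930 on day 6 and 68.8% ± 1.20 before differentiation.

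**Figure D5:**
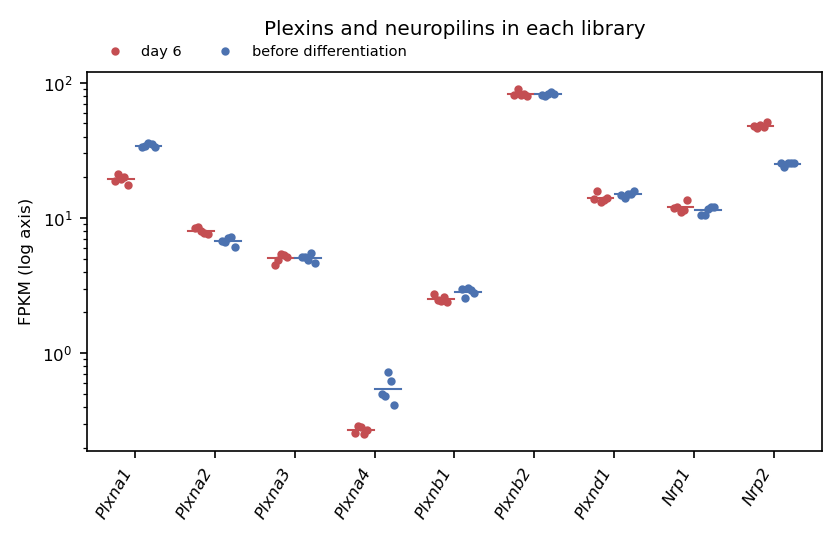
FPKM of 7 plexins and 2 neuropilins in each library, on a log axis, with 1 point per library (5 on day 6, 5 before differentiation) and a line at each mean. Plxnb3 is left out since some of its libraries are at 0. Nrp2 averages 48.2 FPKM on day 6 and 25.1 FPKM before differentiation, and the points of Plxnb2 overlap, with means of 82.8 FPKM on day 6 and 82.5 FPKM before differentiation.

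Genes that act downstream of or beside these families were read from lists drawn up with earlier results of these data known. Of 28 tested genes of Eph and ephrin signalling, 11 were higher and 14 lower, with a median log2 fold change of -0.13, against 40.1% higher and 39.7% lower of all genes tested. The kinase Fyn rose the most, to 329.8 ± 47.9 CPM on day 6, against 111 ± 3.85 CPM before differentiation (log2 fold change 1.57, edgeR adjusted p = 8.01e-11), and the kinase Src fell the most, to 49.3 ± 5.56 CPM on day 6, against 140.3 ± 8.49 CPM before differentiation (log2 fold change -1.51, edgeR adjusted p = 1.01e-12). Inppl1, a lipid phosphatase that binds Eph receptors, had the highest mean CPM of the list over the 10 libraries together, 380.5 ± 56.0 CPM on day 6, against 171 ± 6.80 CPM before differentiation (log2 fold change 1.16, edgeR adjusted p = 3.19e-09).

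Of 31 tested genes of semaphorin and plexin signalling, 12 were higher and 12 lower, against 40.1% higher and 39.7% lower of all genes tested. The median log2 fold change was 0.02 over 32 entries, since Mical3 stands in the table under 2 identifiers, both higher. The largest increase was that of Mical3, of the MICAL oxidases that take actin filaments apart, at 52.2 ± 8.73 CPM on day 6, against 19.8 ± 2.04 CPM before differentiation (log2 fold change 1.40, edgeR adjusted p = 6.80e-09), for the entry of larger change. Rnd1, a GTPase that binds plexins, fell the most, to 5.73 ± 1.12 CPM on day 6, against 29.2 ± 2.54 CPM before differentiation (log2 fold change -2.36, edgeR adjusted p = 2.76e-12). Dpysl3, of the CRMP proteins that carry semaphorin signals to microtubules, had the highest CPM of the list and overlapped, with 371 ± 31.4 CPM on day 6, against 379 ± 5.89 CPM before differentiation (log2 fold change -0.03, edgeR adjusted p = 0.599). Met, a receptor that pairs with plexin B receptors, was chosen after its values were seen and was at 49.3 ± 1.54 CPM on day 6, against 211 ± 7.77 CPM before differentiation (log2 fold change -2.09, edgeR adjusted p = 4.11e-17).

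Of 9 tested genes of a list of VEGF ligands, VEGF receptors and their partners, 5 were higher and 2 lower (median log2 fold change 0.17), beside the same 40.1% and 39.7% of all genes. Plxdc1 passed the filter on low counts only through day 6, which fixed its direction though not its call. Of the other 8 genes, 4 were higher and 2 lower. With day 6 replicates 3, 4 and 5 left out, 4 genes of the list were lower. Plxdc1, a plexin-domain protein of vessels, had the largest fitted increase, and its values are given as a description. It was at 5.28 ± 1.06 CPM on day 6, against 0.481 ± 0.358 CPM before differentiation (log2 fold change 3.39, edgeR adjusted p = 4.46e-08). The VEGF receptor Flt1 fell the most, to 2.66 ± 0.677 CPM on day 6, against 15.9 ± 0.800 CPM before differentiation (log2 fold change -2.58, edgeR adjusted p = 9.76e-12). Vegfa, with the highest CPM, was at 238 ± 39.0 CPM on day 6, against 238 ± 8.26 CPM before differentiation (log2 fold change 0.00, edgeR adjusted p = 0.975), and missed the test.

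The netrin, Slit and repulsive guidance molecule (RGM) families, the other classical guidance systems, had 13 of 17 tested genes higher, 12 of them by more than 1 log2, and 3 lower, with a median log2 fold change of 2.05 (of all genes tested, 40.1% were higher and 18.1% higher by more than 1 log2). Nothing is read from this count, since Ntn5, Slit1, Hfe2, Flrt1 and Ntng2 passed the filter on low counts (a minimum of 0.579 CPM) only through day 6. That fixed their direction, though not their call. Of the other 12, 8 were higher and 3 lower. Under a stricter filter (5 libraries or more at 5 CPM or more), 8 were higher. Hfe2 (hemojuvelin, an RGM protein of muscle and liver that binds bone morphogenetic proteins) had the largest fitted increase, with 239 ± 66.1 CPM on day 6, against 0.409 ± 0.325 CPM before differentiation (log2 fold change 9.11, edgeR adjusted p = 1.00e-08). Ntn5, a netrin, had 292 counts on day 6 and 0 before differentiation, which scaled for depth is at least 102-fold higher against a floor of 3 counts over the 5 libraries, so the order of these 2 genes is not settled. Robo1, a Slit receptor, fell the most, to 15.3 ± 1.70 CPM on day 6, against 35.9 ± 2.22 CPM before differentiation (log2 fold change -1.23, edgeR adjusted p = 1.70e-10). Neo1, a receptor of netrins and RGM proteins, had the highest mean CPM over the 10 libraries together and passed the test with overlapping conditions, at 209.6 ± 9.22 CPM on day 6, against 184 ± 12.2 CPM before differentiation (log2 fold change 0.19, edgeR adjusted p = 0.00364).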

How the data were processed

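Messenger RNA of C2C12 cells was sequenced as 10 libraries, 5 on day 6 of differentiation and 5 before differentiation. Per the labels and the study's methods, the authors trimmed reads with Trimmomatic (version not given in the sources used here), aligned them with STAR 2.5 against mm10, and obtained raw counts of uniquely aligned reads with HTSeq 0.6.1. How strand and overlapping genes were handled in counting is not stated. The study's methods name a directional library kit, while the labels name a non-directional one. The authors also deposited FPKM values, which were checked to equal counts per kilobase of gene and per 1000000 counts of the library. FPKM was used only to set genes side by side and was not tested.

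Counts were analysed in R 4.3.3 with edgeR 4.0.16: filterByExpr by condition kept 13085 of 35275 genes, library totals were scaled by TMM factors, and the robust quasi-likelihood test used the condition alone, with Benjamini-Hochberg adjustment over all genes tested and a threshold of 0.05. The script was tested on simulated data. The standard error (SE) was derived from the log2 fold change and its F statistic, and where counts are few it can be smaller than the counting error. CPM values are counts for each 1000000 of the scaled total, listed in the order of replicates 1 to 5. Ratios of few counts carry exact 95% intervals, which cover counting error only. The numbers of the replicates did not pair the libraries, and the main design holds no block.

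Values in every library are given for each member past the test with a change over 1 log2, for the most abundant member of each family, and for members that missed the test at a mean of at least 5 CPM. Of each list, the largest increase, the largest decrease and the most abundant gene are named. The members, the gene lists and the tests were chosen with earlier results of these data known. Gene positions and exon overlaps came from GENCODE annotation of the same assembly, and promoter sequences from the RefSeq table of GRCm38.p6. The alternatives were DESeq2 1.42.0, library totals alone or relative log expression factors, omitting the filter or requiring 5 CPM in 5 libraries or more, the replicate number as a block, each library left out in turn, day 6 libraries 1 and 2 or 3, 4 and 5 left out, and TMM-scaled CPM per kilobase in place of FPKM.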

Additional observations from a re-analysis of the deposited data

Results flagged for a closer look

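Of 88 groups of 5 libraries (44 genes in 2 conditions), 8 held 1 library far from the other 4, by its gap to the nearest library as a share of the range (Dixon's 95% limit of 0.71). Chance flags about 1 in 20 groups. Efnb1 did so in both conditions, with 15.0 CPM in day 6 replicate 5 (18.4 to 19.3 CPM in the others) and 18.4 CPM in replicate 1 before differentiation (24.4 to 26.4 CPM in the others). Efnb3 had 1.81 CPM in day 6 replicate 5, against 0.445 to 0.747 CPM in the other day 6 libraries, and Sema3g had 2.19 CPM in day 6 replicate 3, against 0.794 to 1.16 CPM. Plxnd1 had 112 CPM in day 6 replicate 2, against 91.2 to 96.8 CPM. Before differentiation, Sema3e had 52.9 CPM in replicate 4 (57.6 to 59.0 CPM in the others), Sema4c 88.4 CPM in replicate 3 (80.1 to 81.8 CPM) and Sema6d 8.83 CPM in replicate 5 (6.05 to 6.52 CPM).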

How the results depend on the processing

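Over the alternatives, the number of members higher on day 6 lay between 13 and 18 and the number lower between 14 and 19, and members changed by over 1 log2 numbered 16 to 23. Leaving out each library in turn gave 16 to 17 higher, 16 to 19 lower and 19 to 23 changed by over 1 log2. Of the list counts, 4 genes of the VEGF list in place of 2 were lower with day 6 libraries 3, 4 and 5 left out, and 8 genes of the netrin, Slit and RGM list in place of 13 were higher under the filter of 5 CPM in 5 libraries or more, where fewer genes are tested. Log2 fold changes that changed sign all belonged to genes that missed the test. With day 6 libraries 3, 4 and 5 left out these were Epha1 (-0.15), Epha4 (0.02), Plxnd1 (0.06), Plxna3 (-0.03) and Sema4c (0.01). With day 6 libraries 1 and 2 left out they were Plxnb2 and Sema4c (both 0.00). Plxna3 came to -0.01 with library totals alone, and Sema4c to 0.00 with relative log expression factors and 0.03 with the filter at 5 CPM. Without single libraries, Plxna3 ranged from -0.02 to 0.06, Efna2 from -0.16 to 0.00 and Sema4c from -0.03 to 0.00. The cause was not tested. Among the members tested in a setting, Efnb3 was the only called one to lose its call. The filter at 5 CPM left 36 of the 44 members, without Efna3, Efnb3, Plxnb3, Sema3g, Sema4a, Sema4g, Sema6b and Sema6c. Epha1, Epha4, Plxnb1, Plxnb2 and Sema4a gained one in some settings. With the replicate number as a block, 16 members were higher, 18 lower (Epha4 among them, log2 fold change -0.28, edgeR adjusted p = 0.0355) and 21 changed by over 1 log2. With the block, library totals alone or the filter at 5 CPM, 4 genes of the VEGF list were higher. Same-numbered libraries did not deviate together (correlations of -0.05 to 0.01), so the numbers were not taken as pairs. With DESeq2, 6074 genes of the whole table were higher and 5446 lower. Shares within a family cannot change when FPKM is replaced by TMM-scaled CPM per kilobase, so that alternative is no check of them. Depth limits the 9 untested members and Plxnb3, whose level before differentiation rests on 4 counts.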
